A study of Mus musculus with 2 samples.

Results

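The genes for the proteins of the cytosolic ribosome were followed through the cell types of the mouse proximal small intestine and along the villus. Members were all genes whose symbol is Rps or Rpl followed by a digit, or Rplp0, Rplp1, Rplp2 or Rpsa, without "-ps" in the symbol and with at least 50 unique molecular identifiers (UMIs, each standing for 1 captured RNA molecule) in each library. Of the 32285 genes in the count matrices, 96 matched the symbols and 90 reached the minimum. These were 31 proteins of the small subunit, 43 of the large subunit, the 3 proteins of the P stalk, 5 paralogs (Rpl22l1, Rps27l, Rpl36al, Rpl7l1 and Rps27rt) and 8 genes that carry the letters in their symbol but are no ribosomal proteins. The last are the ribosomal S6 kinases Rps6ka1, Rps6ka2, Rps6ka3, Rps6ka5, Rps6kb1, Rps6kb2 and Rps6kc1, and Rps19bp1, which binds Rps19. They are described apart, and counts of members below refer to the other 82 unless stated. The 6 symbols under the minimum were Rpl10l with 0 UMIs in both libraries, Rpl39l with 6 and 6, Rpl3l with 5 and 1, Rps6kl1 with 12 and 8, Rps6ka6 with 25 and 10, and Rps6ka4, just outside, with 33 and 45. Just inside was Rps6ka2 with 107 and 59.

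The series concerns muscarinic acetylcholine receptors in the gut of C57BL/6 mice, and the single-cell libraries analysed here came from control mice. There were 2 such libraries, labelled as the control of the M1 receptor model (control 1) and of the M3 receptor model (control 2). Both have the genotype C57BL/6 and no treatment is named. Age and sex are not given in the labels, nor is whether each library held 1 animal or several. Pieces of proximal small intestine were kept for 60 min in ice-cold 20 mM EDTA, which released a villus-rich fraction, then for 10 min in TrypLE, which released a crypt-rich fraction. Both fractions were passed through a 30 µm strainer and pooled, and suspensions with at least 80% viable cells were used. With 1 group there is no comparison of conditions: the comparisons are between cell classes of the same suspensions. The 2 libraries are treated as replicates, and a library term takes out their common difference. The p-values thus measure only how differences between classes or villus zones vary between these 2 libraries. That spread may be technical, and the M1 and M3 labels cannot be told apart from the library.

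The ribosome translates messenger RNA into protein. A small subunit reads the message and a large subunit joins the amino acids, and each is a shell of proteins, nearly all present in a single copy, around ribosomal RNA. The P stalk, an acidic arm of the large subunit made of Rplp0, Rplp1 and Rplp2, recruits elongation factors. Messages of ribosomal proteins belong to the class that begins with a terminal oligopyrimidine (TOP) tract, a C followed by a run of pyrimidines at the first transcribed base, through which the growth kinase mTOR and the RNA-binding protein Larp1 control their translation together. In the intestine stem cells and their dividing progeny sit in crypts, and enterocytes, the absorptive cells, are carried from the villus base to its tip, where they are shed.

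All 90 members were found in the GENCODE M21 annotation of GRCm38, the 82 ribosomal ones on 19 chromosomes, with 14 on chromosome 7 and 4 on the X chromosome (Rpl10, Rpl36a, Rpl39 and Rps4x). Of the 82, 30 (36.6%) hold a small nucleolar RNA gene inside them, 58 such RNAs in all, beside 1.18% of 21951 protein-coding genes. Their longest annotated transcript had a median of 925.5 bases (374 to 5179), against 2683 bases for all protein-coding genes. RefSeq start sites were at hand for 62 of the 82. A C followed by at least 4 pyrimidines on the gene's strand lay exactly at an annotated start in 14 of the 62 (22.6%), beside 3.01% of 27025 genes, and began within 5 bases of it in 30 (48.4%), beside 21.2%. Of the 6 S6 kinases and Rps19bp1 with an entry, 0 had the tract at the start and 2 within 5 bases. An annotated start can be some bases off the one used, so a window without the tract says only that these letters are not at the annotated position.

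Start sites of 6 members on which the results below turn are shown from RefSeq on GRCm38.p6, 15 bases before and 15 from the start, 5′ to 3′ on the gene's strand, with the tract in capitals. Rpl12 and Rps2 departed from the family in several comparisons, Rps15a and Rpl13a led it in lymphocytes, and the paralogs Rps27l and Rpl7l1 followed it least in progenitors and along the villus.
Rpl12, chr2:32961697-32961726, plus strand: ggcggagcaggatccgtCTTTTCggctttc
Rps2, chr17:24720048-24720077, plus strand: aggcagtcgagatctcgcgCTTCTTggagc
Rps15a, chr7:118116133-118116162, minus strand: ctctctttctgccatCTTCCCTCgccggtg
Rpl13a, chr7:45128731-45128760, minus strand: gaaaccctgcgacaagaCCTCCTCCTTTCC
Rps27l, chr9:66946071-66946100, plus strand: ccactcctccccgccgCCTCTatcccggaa
Rpl7l1, chr17:46782642-46782671, minus strand: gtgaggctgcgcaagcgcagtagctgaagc
The tract begins at the start in Rps15a and 1 to 4 bases after it in Rps27l, Rpl12, Rpl13a and Rps2, while the Rpl7l1 window holds none. Rps27l has a further annotated start without the tract. Of other members named below, Rpl41, Rpl9 and Rps19 had no tract within 5 bases of any annotated start. Rps24, Rps21, Rpl7a and Rpl28 had it near at least 1 start. Whether the tract goes with a member's changes was not tested.

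The matrices held 9342 and 7109 cell barcodes with 54451793 and 36139325 UMIs, of which 7115 and 4714 cells (44907552 and 27149001 UMIs) with at least 500 genes and under 25% mitochondrial UMIs were kept, with 8 kept barcodes shared by the libraries. Clusters, made without ribosomal protein, mitochondrial or compared genes, were named from marker genes as progenitor-like, enterocyte-like and so on, and the "-like" is left out below. The suspension was not purely epithelial: 2447 and 1459 cells were T or NK cells, against 3443 and 2207 enterocytes. The doublet caller marked 0.0702% and 0.590% of cells, far below the preset rate of 6% in both libraries, so doublets remain. Levels are in CPM, the gene's UMIs scaled to 1000000 UMIs of the class, not divided by transcript length because each molecule is read at its 3′ end. Shares and CPM are relative to all UMIs and say nothing of molecules per cell.

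Over all kept cells the 90 members took 12.2% of the UMIs in control 1 and 8.41% in control 2. The load was spread widely: the 10 most abundant made up 19.8% and 21.5% of the members' UMIs, and the S6 kinases with Rps19bp1 0.249% and 0.404%. The level of Rpl41, a very short basic peptide of the large subunit, was highest by the mean of the libraries, at 2980.5 and 2241.1 CPM, and other abundant members were Rplp1 at 2959 and 1796, Rps24 at 2767 and 1923, and Rps29 at 2056 and 2434. The ribosomal members with the lowest levels were Rpl22l1 (510 and 363 CPM), Rpl35 (287 and 553), Rps27l (438 and 321), Rps27rt (197 and 51.9) and Rpl7l1 (50.8 and 39.5), so 4 of the 5 paralogs stood at the bottom. Lowest of all 90 were Rps19bp1 (34.4 and 32.5), Rps6ka5 (30.0 and 34.1), Rps6kc1 (12.6 and 14.03), Rps6kb2 (10.6 and 13.2) and Rps6ka2 (2.14 and 1.99).

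Among the epithelial classes ribosomal protein genes took the highest share of UMIs in progenitors and the lowest in goblet cells, with enterocytes between them. In progenitors, the class named from markers of stem and dividing cells, the summed share was 28.2% in control 1 (602 cells) and 18.6% in control 2 (390 cells). In enterocytes it was 7.60% and 4.17%. In goblet cells, which make mucus, it was 3.25% and 2.09% (113 and 251 cells). Deep cells weigh more in such sums, which also serve the class contrasts below. The enterocyte cluster led by Reg1 and Mgam (201 and 102 cells) had a median of 39255 UMIs per cell. That led by 2010001M07Rik and Fabp2 (1006 and 1011 cells) had 1777. The mean enterocyte share of the libraries was 5.88%, and 5.30% to 7.21% under the alternatives run. Progenitors of both libraries stood above enterocytes of both, and goblet cells below enterocytes of both. Exact binomial 95% intervals are narrow, 28.19% to 28.27% for progenitors of control 1, but cover counting error only, and the gap between the libraries was far wider. Of the rarer epithelial classes Paneth cells had 6.53% and 6.23%, enteroendocrine cells 3.95% and 4.43%, and tuft cells 6.96% and 9.84%, each from 8 to 24 cells a library.

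Cells of the blood lineages had high shares too, apart from erythroid cells with 4.26% and 2.09%. T or NK cells stood at 15.37% and 14.01%, myeloid cells at 18.15% and 16.10%, mast cells at 18.02% and 19.998%, and plasmacytoid dendritic cells at 17.8% and 19.3%. B or plasma cells gave 9.44% and 16.1%, a class that joins a cluster led by the B cell genes Ebf1, Bank1 and Ms4a1, at 26.2% and 20.8%, with one led by the antibody genes Jchain and Igha, at 6.24% and 7.38%. Mitochondrial genes took 3.61% and 3.04% of UMIs in progenitors, 5.66% and 6.97% in enterocytes, and 2.67% and 3.35% in T or NK cells. The nuclear RNA Malat1 took 0.21% and 0.30% in progenitors, 0.22% and 0.75% in enterocytes, and 1.97% and 2.79% in T or NK cells. The part of these in the differences between classes was not tested.

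**Figure D1:**
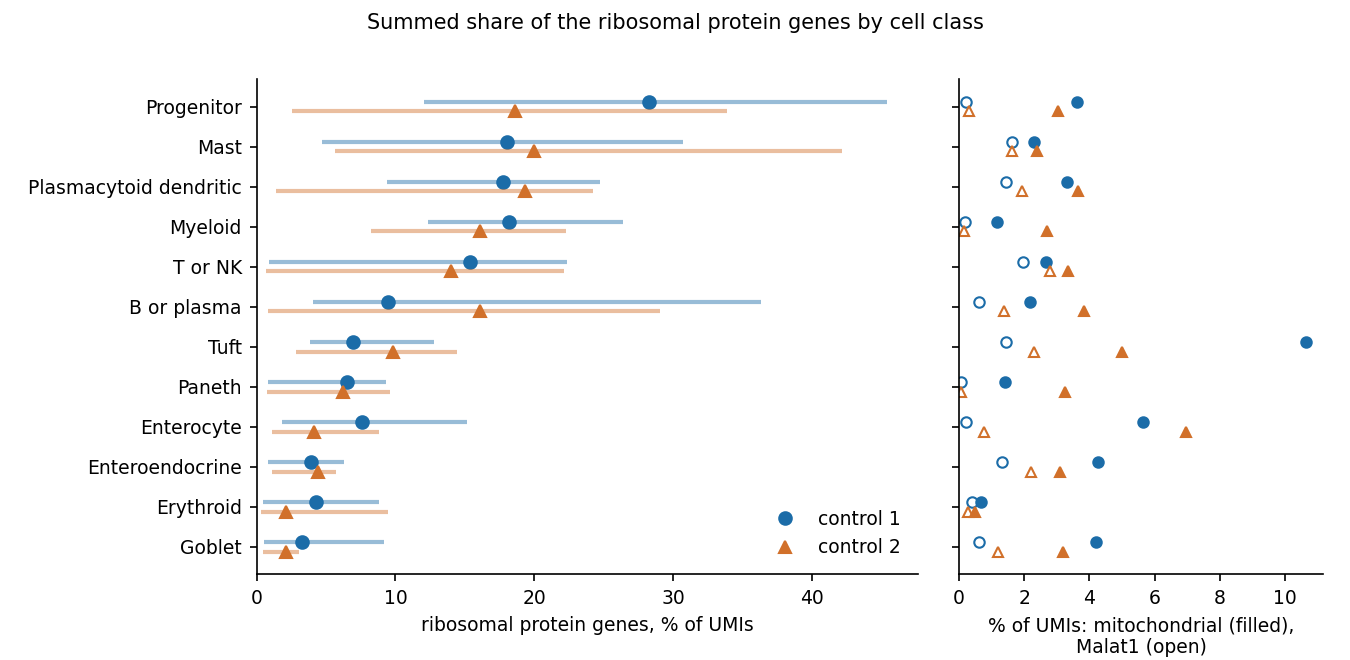
Summed share of the 90 members in percent of all UMIs of a class (left, points for the 2 libraries) and the mitochondrial and Malat1 shares of the same cells (right). Progenitors lie at 28.2% and 18.6%, enterocytes at 7.60% and 4.17%, and goblet cells at 3.25% and 2.09%.

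The share also varied widely within a class. From the 10th to the 90th percentile of single cells it ran from 12.1% to 45.4% in progenitors of control 1 and from 2.58% to 33.9% in control 2, from 1.86% to 15.1% and 1.14% to 8.83% in enterocytes, and from 0.91% to 22.4% and 0.71% to 22.2% in T or NK cells. Within progenitors, the libraries differed most in the cluster led by Aldh1b1, Oat and Gpx2, with 34.9% in control 1 (333 cells) and 12.8% in control 2 (268 cells). This cluster, most of the class, was named from its stem marker score (1.28). Its leading genes held 1 progenitor marker, Stmn1, and 1 enterocyte landmark, Gpx2, so its identity is uncertain. The other cluster, led by the dividing-cell genes Top2a and Birc5 and the stem cell gene Olfm4, had 26.3% and 22.2% (269 and 122 cells). Among T or NK clusters, that led by Cd8b1 had 21.8% and 22.1% and that led by Xcl1 and Cd160 had 22.3% and 22.3%, while that led by Frmd5 and Clnk had 1.52% and 1.21% (436 and 514 cells) and that led by Klrk1 and Ncr1 5.03% and 3.90%. The last pair also had the most Malat1 of the class, 4.33% and 4.45% and 3.22% and 3.81%, and mitochondrial shares of 5.40% and 6.71% and 4.91% and 5.73%. Without cells over 3% Malat1 the class stood at 16.7% and 17.3%. By single lymphocyte genes, cells with a UMI of Cd8b1 had 20.9% and 19.9%, cells with Cd4 19.43% and 18.98%, and cells with Trdc, of the gamma-delta receptor, 15.6% and 14.4%.

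Along the villus the ribosomal protein genes fell at every step from base to tip. Enterocytes with at least 10 UMIs of villus landmark genes (2500 and 1491 cells) were ordered by the upper-villus share of those UMIs and cut within each library into 5 zones of equal size, 1 the lowest and 5 the highest. Lower landmarks were Reg3b, Reg3g, Nlrp6, Il18, Lypd8, Ccl25, Dmbt1, Gpx2, Gsta1 and Gstm3. Upper landmarks were Ada, Nt5e, Slc28a2, Apoa4, Klf4, Egfr, Krt20, Pmp22, Enpp3 and Creb3l3. The landmarks include no member. Zones are not matched between the libraries: the median landmark score of zone 3 was 0.20 in control 1 and 0.45 in control 2. They also differ by cluster: of 500 cells of control 1, 344 of zone 1 were of the cluster led by Tstd1 and Reg3a, and 287 of zone 5 of that led by Reg3b and Apoa1. Reg3b and Reg3g, both lower landmarks, are among the leading genes of the cluster that held most of zone 5 there. Deep cells weigh more in sums, and as a mean over cells the share was 12.1% and 9.53% in zone 1 and 2.00% and 1.35% in zone 5. The summed share fell from 15.0% to 12.1%, 6.82%, 2.98% and 1.51% in control 1, and from 10.1% to 5.18%, 3.27%, 2.01% and 0.76% in control 2. Zone 1 of both libraries lay above zone 5 of both. In each library zones 4 and 5 lay below the goblet cells of that library. The order of goblet cells and enterocytes given above thus holds for the enterocyte class as a whole, not for each villus zone. Of the 82 members, 81 fell in CPM at each of the 4 steps in both libraries, beside 4.99% of the 9393 genes tested along the villus. The exception was Rps27l in control 1, which stood at 736 CPM in zone 1 and 739 in zone 2.

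The size of the fall differed between members. The ratio of zone 1 to zone 5 had a median of 10.5 in control 1 and 13.9 in control 2. It was highest for Rpl3, a core protein beside the peptidyl transferase centre (chr15:80077791-80091868, minus strand), at 39.7 in both: its level fell from 1299 to 32.7 CPM in control 1 and from 692 to 17.4 in control 2. It was lowest for Rps27l in control 1 (2.13, from 736 to 345 CPM) and for Rpl7l1 in control 2 (2.996, from 63.6 to 21.2 CPM). For 81 of the 82 members zone 5 of both libraries lay below zone 1 of both in CPM, as it did for 37.6% of all genes tested. Rps27rt was the exception, with 175 and 36.8 CPM in zones 1 and 5 of control 1 and 35.5 and 6.65 in control 2, so that zone 5 of control 1 lay above zone 1 of control 2.

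Mitochondrial and Malat1 shares rose as the members fell. Mitochondrial genes went from 2.69% in zone 1 to 9.76% in zone 5 in control 1, and from 5.13% to 13.4% in control 2, with 3.80% and 3.86% in zones 2 and 3. Malat1 went from 0.09% to 0.48% and from 0.37% to 1.84%. In cells under 2% mitochondrial UMIs alone, the members' share fell from 12.6% to 2.22% in control 1 and from 9.91% to 2.02% in control 2. In cells at 2% or more it fell from 16.4% to 0.912% and from 9.62% to 0.379%. Zones were cut anew within each of these sets, so they may span other landmark scores than the zones of all cells. The sizes of these falls therefore cannot be compared with those over all cells. The part of the mitochondrial and Malat1 shares in the members' fall was not tested.

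**Figure D2:**
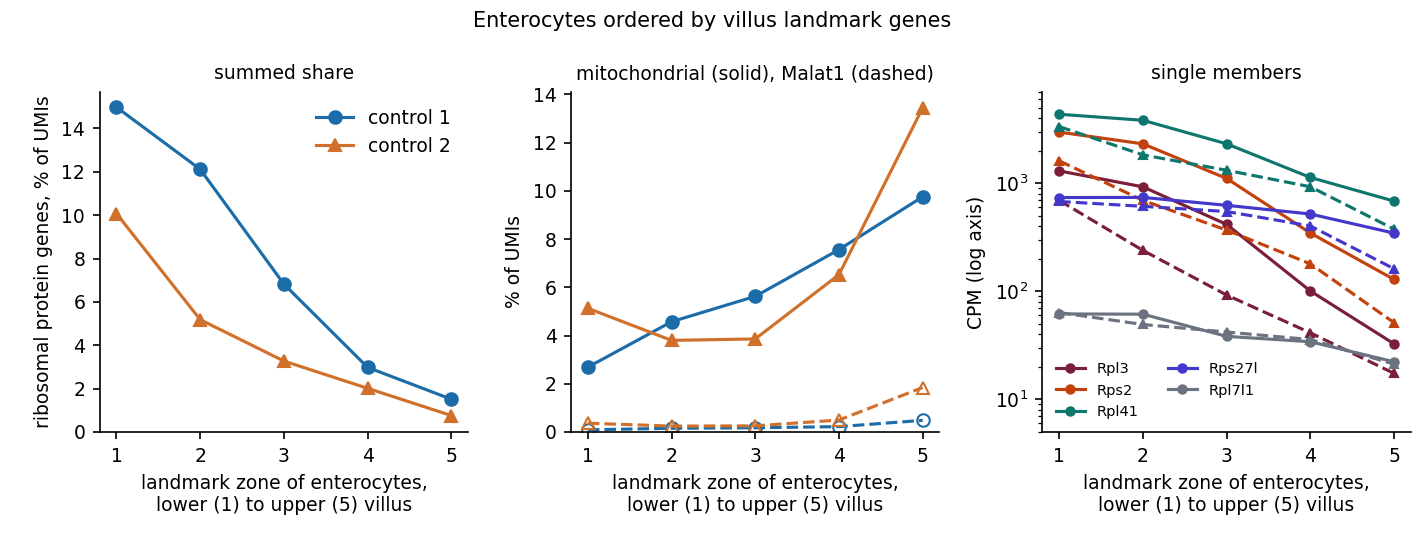
Enterocytes in 5 landmark zones from lower to upper villus. Left, summed share of the 90 members in percent of UMIs, falling from 15.0% to 1.51% and from 10.1% to 0.76%; middle, mitochondrial (solid) and Malat1 (dashed) shares; right, CPM of 5 members on a log axis (solid, control 1; dashed, control 2), with Rpl3 falling most and Rps27l and Rpl7l1 least.

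Each class was then compared with enterocytes gene by gene with edgeR's quasi-likelihood test on UMIs summed per library and class, with a library term, TMM scaling and Benjamini-Hochberg adjustment over all 11675 genes tested (9393 for zone 5 against zone 1). An adjusted p under 0.05 is a call. Fold changes are log2 with their standard error. All 90 members were tested between classes and 89 between zones, where Rps6ka2 was too low.

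In progenitors 79 of the 82 members were higher than in enterocytes and 0 lower, where 26.9% of all genes were called higher and 28.2% lower. The members' median was 1.46 and that of all genes 0.0047. All 31 small subunit genes, all 43 large subunit genes and all 3 P stalk genes were higher, and of the paralogs Rpl22l1 and Rps27rt. In the stalk, Rplp0 had 5187 and 2919 CPM in progenitors against 1346 and 574 in enterocytes, without overlap. The stalk genes rose by similar amounts, Rplp0 by 1.52 ± 0.31 (adjusted p = 0.00059), Rplp1 by 1.47 ± 0.31 and Rplp2 by 1.54 ± 0.30. The largest differences were those of Rpl12, at the base of the stalk, and Rpl3. Rpl12 had 3448 and 1898 CPM in progenitors against 497 and 202 in enterocytes (2.38 ± 0.33, adjusted p = 2.1e-05). Rpl3 had 3341 and 1834 CPM against 533 and 213 (2.24 ± 0.33, adjusted p = 3.4e-05). Rpsa, also known as the laminin receptor, followed with 2.01 ± 0.32, then Rpl14 with 1.88 ± 0.30 and Rps19, mutated in Diamond-Blackfan anaemia, with 1.85 ± 0.33. In CPM, progenitors of both libraries lay above enterocytes of both for 80 of the 82, as did 54.7% of all genes tested.

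Progenitors did not differ from enterocytes beyond the spread in 3 paralogs. Rps27l, a paralog of Rps27 that the tumour suppressor p53 induces, had 651 and 570 CPM in progenitors and 615 and 471 in enterocytes (log2 change -0.43 ± 0.27, adjusted p = 0.20). It was called lower under 4 alternatives, without cells over 50000 UMIs among them (-0.86, adjusted p = 0.022), and its change was 0.18 with total UMIs alone. Rpl7l1 had 78.4 and 61.4 CPM against 44.1 and 40.3 (0.11, adjusted p = 0.77), and Rpl36al 1143 and 951 against 547 and 351 (0.65, adjusted p = 0.072). Their CPM is nominally higher in progenitors while the fitted change is smaller or below 0, since TMM and the total of UMIs scale these classes differently. With total UMIs alone the median of all genes moved from 0.0047 to 0.61 and 76.3% of calls were higher, against 48.9% with TMM. Members higher then numbered 80, with a median of 2.06.

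In goblet cells 0 members were higher and 75 lower, where 19.8% of all genes were called higher and 23.5% lower. The members' median was -1.13, that of all genes -0.046. Lower were 30 of 31 small subunit genes, 39 of 43 large subunit genes, the 3 stalk genes and the paralogs Rpl22l1, Rps27l and Rpl7l1. Rps2, which lines the path of the message into the small subunit (chr17:24718116-24721929, plus strand), had 351 and 140 CPM against 1336 and 561 in enterocytes and fell furthest, by 1.88 ± 0.33 on the log2 scale (adjusted p = 0.00021). Rpl28 fell by 1.70 ± 0.30. The 7 not called were Rpl9, Rpl12, Rpl30, Rpl41, Rps27, Rpl36al and Rps27rt. Rpl41 had 1883 and 1693 CPM in goblet cells against 2460 and 1532 in enterocytes (-0.03 ± 0.30, adjusted p = 0.95), lower in control 1 and higher in control 2. The 75 became 33 without the library term and 9 when each cell was classed by its own markers.

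In T or NK cells members split: 28 were higher and 2 lower, where 38.9% of all genes were called higher and 35% lower. The members' share of higher calls is thus close to that of all genes, and their share of lower calls is smaller. The median was 0.50, that of all genes 0.14. Higher were 11 of 31 small subunit genes, 14 of 43 large subunit genes, Rplp1 (0.85 ± 0.31, adjusted p = 0.019), Rplp2 (0.87 ± 0.29, adjusted p = 0.013) and Rps27rt (1.09 ± 0.26, adjusted p = 0.0011), while Rplp0 had -0.15 ± 0.30 (adjusted p = 0.66). The calls of Rplp1 and Rplp2 were lost under 6 alternatives, among them no count filter (adjusted p = 0.13 and 0.12), and that of Rps27rt without the library term (0.30). Rps15a, of the small subunit, had 4055 and 3208 CPM against 928 and 406 in enterocytes and led with 1.68 ± 0.33 (adjusted p = 0.00020), next to Rpl12 with 1.62 ± 0.32 and Rpl13a, which can leave the ribosome to repress inflammatory messages in myeloid cells, with 1.62 ± 0.29 (3183 and 2610 CPM against 731 and 363).

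The genes called lower in T or NK cells differed in how firmly. Rps27l had 162 and 128 CPM against 615 and 471, fell by 2.76 ± 0.29 (adjusted p = 2.3e-07) and was called under each of the 15 alternatives that give a test. Rpl7a had 666 and 540 CPM against 729 and 477, which overlap, and fell by 0.83 ± 0.26 (adjusted p = 0.0081), but with total UMIs alone its change was 0.02, of the other sign. This contrast turned on the scaling as a whole: with total UMIs alone the median of all genes moved from 0.14 to 1.00, 71.1% of all calls were higher against 52.7%, and 63 members were higher and 1 lower. The count of higher members was 6 without the library term and 13 without cells over 50000 UMIs. The median was 0.88 in control 2 alone and 0.18 in control 1 alone.

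From lower to upper villus all 82 members were lower and 0 higher, where 24.9% of all genes were called higher and 24.8% lower. The members' median was -3.48, that of all genes 0.013. The log2 change was -5.25 ± 0.41 for Rpl3, -4.68 ± 0.35 for Rps2 (2966 and 1609 CPM in zone 1, 129 and 51.3 in zone 5), -4.59 ± 0.39 for Rps19, -4.48 ± 0.37 for Rps18 and -4.46 ± 0.38 for Rps24, each with adjusted p = 2.7e-06. For the stalk genes it was -4.25 ± 0.35 (Rplp0), -3.92 ± 0.35 (Rplp1) and -3.75 ± 0.32 (Rplp2). Rplp0 went from 2794 and 1594 CPM in zone 1 to 163 and 69.4 in zone 5. The smallest falls were those of Rpl7l1, by 1.45 ± 0.24 (adjusted p = 0.00031), Rps27l, by 1.48 ± 0.28 (adjusted p = 0.00082), and Rps27rt, by 2.25. Rpl41 fell by 2.83 ± 0.32, from 4340 and 3338 CPM to 683 and 376. The upper zone is also the one with the highest mitochondrial share, whose part in these falls was not tested. Under every alternative run that gives a test 81 or 82 members were lower, among them the cells under 2% and those at 2% mitochondrial UMIs or more, with zones cut anew in each.

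**Figure D3:**
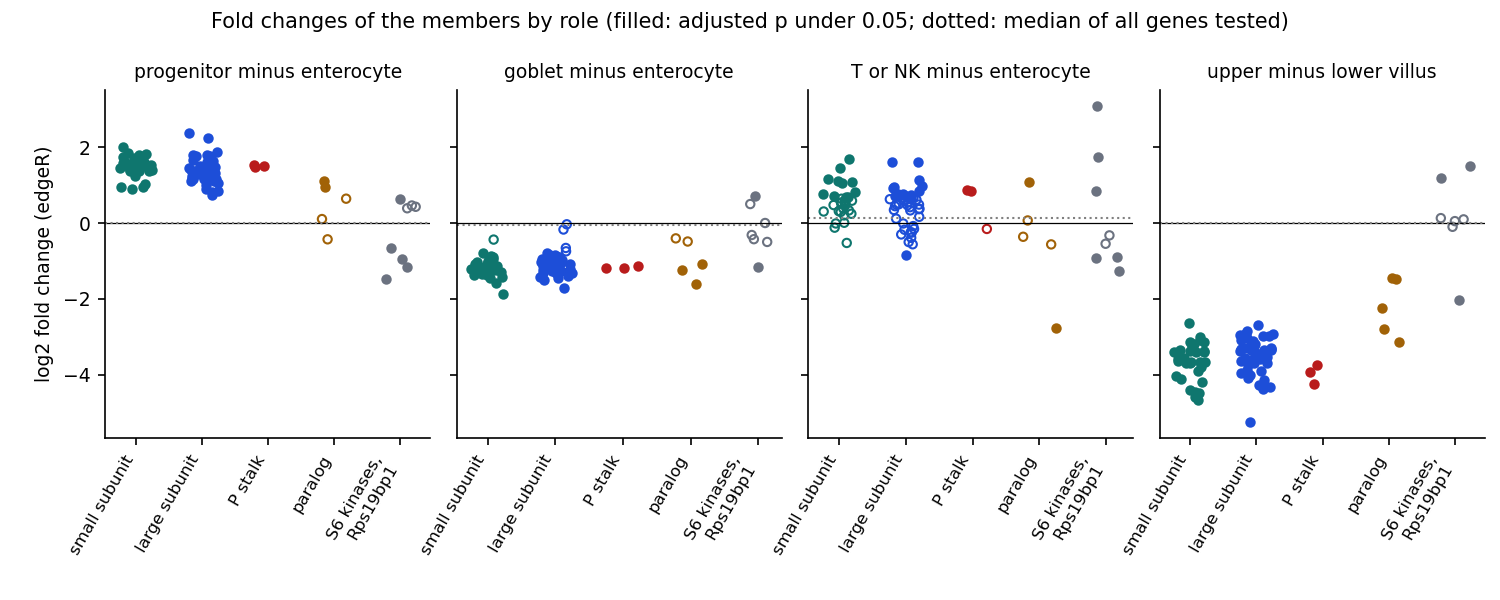
Log2 fold changes of the members by role in the 4 comparisons (filled, adjusted p under 0.05; dotted, median of all genes tested). Rps6ka2 in goblet cells is left out because its error exceeds the axis. All 82 ribosomal members lie below 0 for upper minus lower villus and 79 are called above 0 for progenitors.

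The S6 kinases and Rps19bp1, at far lower levels, changed in both directions. Rps6kb1, the S6 kinase below mTOR, had 56.1 and 62.7 CPM in progenitors, 73.2 and 92.2 in T or NK cells and 24.3 and 25.8 in enterocytes. It was higher in progenitors (0.63, adjusted p = 0.018) and in T or NK cells (0.85 ± 0.21, adjusted p = 0.0012), calls that were both lost without a count filter (adjusted p = 0.24 and 0.055). Rps6ka3 was higher in T or NK cells by 1.75 ± 0.26 (adjusted p = 1.1e-05; 164 and 206 CPM against 26.8 and 34.1) and in goblet cells by 0.73 ± 0.27 (adjusted p = 0.036), a call lost with total UMIs alone (adjusted p = 0.17). Rps6ka1, Rps6ka5, Rps6kb2 and Rps6kc1 were lower in progenitors, and Rps6ka1, Rps6ka5 and Rps6kc1 in T or NK cells. With total UMIs alone the calls of Rps6ka1, Rps6ka5 and Rps6kb2 in progenitors (adjusted p = 0.89, 0.12 and 0.41) and all 3 in T or NK cells (0.84, 0.18 and 0.91) were lost, and in CPM Rps6kc1 overlapped, with 14.1 and 14.4 in T or NK cells and 13.8 and 15.6 in enterocytes. Rps6ka2 gave 22 and 21 UMIs in T or NK cells and 3 and 1 in enterocytes, too few for a fold.

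Along the villus 2 of the 7 of these genes that could be tested rose and 1 fell, shares near or under those of all genes (24.9% and 24.8%). Rps6kc1 rose by 1.51 ± 0.30 (adjusted p = 0.0012), from 6.31 and 12.1 CPM in zone 1 to 23.8 and 24.4 in zone 5, a call lost in cells under 10% mitochondrial UMIs (adjusted p = 0.14). Rps6ka5, which phosphorylates histones and CREB, rose by 1.19 ± 0.36 (adjusted p = 0.014), from 11.04 and 39.8 to 52.2 and 46.9 CPM, mostly in control 1. That call was lost under 5 alternatives, and its change was -0.24 in cells under 2% mitochondrial UMIs. Rps19bp1 fell with the ribosomal proteins, by 2.04 ± 0.28 (adjusted p = 6.7e-05), and was lower in goblet cells too, by 1.16 ± 0.34.

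Each member was next tested against the summed UMIs of all members, which asks which genes gained or lost their place within the family whatever the scaling to other genes. The adjustment again ran over all genes tested, many of which are called on this scale, so it is lenient for the members. An adjustment over the 82 members alone was not run, and members called here might not pass it. Of the 82, 71 lay within 0.5 log2 units of the family's own change in progenitors, 73 in goblet cells, 53 in T or NK cells and 55 along the villus. The departures were alike in both libraries, with Pearson correlations across the 82 genes of 0.97, 0.91, 0.97 and 0.93, given as a description because genes of a library share its cells.

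In progenitors Rpl12 (0.98 ± 0.36, adjusted p = 0.013) and Rpl3 (0.85 ± 0.36, adjusted p = 0.033) gained against the family, and Rps27l (-1.85 ± 0.39, adjusted p = 4.7e-05) and Rpl7l1 (-1.34 ± 0.40, adjusted p = 0.0030) lost. On this scale 6.03% of all genes were called higher and 61.6% lower. Before adjustment the quasi-likelihood p was 0.0078 for Rpl12 and 0.021 for Rpl3, so their calls lean on an adjustment that most genes pass. In goblet cells Rpl41 (1.00 ± 0.34, adjusted p = 0.012) and Rpl9 (0.87 ± 0.35, adjusted p = 0.033) gained and Rps2 lost (-0.84 ± 0.35, adjusted p = 0.043), beside 41.8% and 7.73% of all genes. The call of Rps2 was lost when the sum left out the 10 most abundant members (adjusted p = 0.058).

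The make-up of the family also differed between T or NK cells and enterocytes, about as widely as along the villus within enterocytes. The standard deviation of the departures was 0.63 and 0.61. Gaining were Rps15a (1.17 ± 0.35, adjusted p = 0.0030), Rpl12 (1.12 ± 0.36, adjusted p = 0.0054), Rpl13a (1.102 ± 0.35, adjusted p = 0.0052) and Rps21 (0.95 ± 0.35, adjusted p = 0.014), and 9 lost, beside 24.6% of all genes higher and 39.4% lower. Both counts lay under these shares of all genes. The losses were led by Rps27l (-3.29 ± 0.41, adjusted p = 6.9e-10) and Rpl7a (-1.36 ± 0.36, adjusted p = 0.00097), followed by Rpl7l1 (-1.105), Rpl29 (-1.07), Rps2 (-1.03), Rpl28 (-1.01), Rpl41 (-0.91), Rpl36al (-0.90) and Rpl15 (-0.81). Rps21 had 2835 and 3151 CPM in T or NK cells and 745 and 471 in enterocytes, while Rps2, with 1327 and 923 against 1336 and 561, overlapped.

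Along the villus 4 members gained and 10 lost against the family, beside 94.9% and 0.298% of all genes. With so many genes called, the adjustment did almost nothing. The quasi-likelihood p was 0.0388 before and 0.0408 after it for Rps27, and 0.0435 and 0.0457 for Rplp0. The gains were Rpl7l1 (1.98 ± 0.33, adjusted p = 8.2e-07), Rps27l (1.97 ± 0.40, adjusted p = 1.9e-05), Rps27rt (1.18 ± 0.34, adjusted p = 0.0016, lost when thinned to 1000 UMIs per cell, adjusted p = 0.11) and Rps27 (0.82 ± 0.39, adjusted p = 0.041), that is, Rps27 with both its relatives. The losses were Rpl3 (-1.80 ± 0.38, adjusted p = 3.1e-05), Rps2 (-1.23 ± 0.38, adjusted p = 0.0027), Rps19 (-1.14 ± 0.37, adjusted p = 0.0041), Rps18 (-1.03), Rps24 (-1.02), Rps4x (-0.96), Rpl35 (-0.92), Rpl12 (-0.88), Rpl13 (-0.82) and Rplp0 (-0.80). By role, the median departure was -0.20 for small subunit genes, 0.06 for large subunit genes, -0.47 for the stalk and 1.18 for the paralogs. By these lenient calls Rpl3 and Rpl12 gained from enterocyte to progenitor and lost from lower to upper villus, and Rps27l and Rpl7l1 did the opposite. The comparisons share enterocytes, so these directions are not independent.

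**Figure D4:**
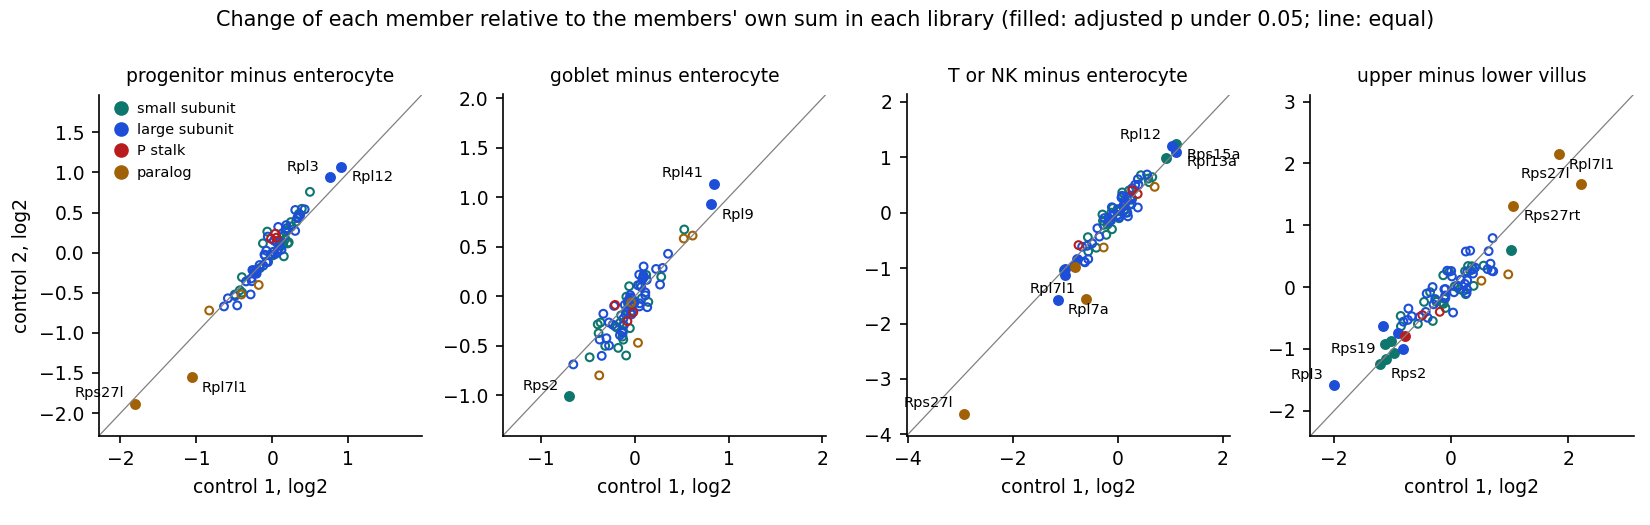
Log2 change of each of the 82 members relative to the members' own sum, control 1 against control 2, in the 4 comparisons (filled, adjusted p under 0.05 in the fit of both libraries; line, equal). Rps27l lies lowest in progenitors and in T or NK cells, and Rpl3 lowest and Rpl7l1 and Rps27l highest along the villus.

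Other genes of the translation apparatus were taken as lists. In progenitors, goblet cells, T or NK cells and the upper villus, 26.9%, 19.8%, 38.9% and 24.9% of all genes were called higher. Called lower were 28.2%, 23.5%, 35% and 24.8%. Of 22 other TOP messages, which encode elongation and initiation factors and similar proteins, 14 were higher and 0 lower in progenitors (median 0.92), 0 and 20 in goblet cells (-1.25), 2 and 5 in T or NK cells (-0.04), and 0 and 22 in the upper villus (-2.29). Npm1, a nucleolar chaperone, rose by 2.22 in progenitors, and Rack1, a scaffold on the small subunit, fell by 4.04 along the villus. Both T or NK counts lay under the shares of all genes. The T or NK split became 11 higher and 0 lower with total UMIs alone.

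Of 30 genes of ribosome biogenesis, 29 were higher in progenitors and 0 lower (median 2.49), led by Gar1 of the box H/ACA particle (3.96 ± 0.29) and Nop56 of the box C/D particle (3.83 ± 0.26), and 22 were higher and 0 lower in T or NK cells (1.42), led by Polr1a, the largest subunit of RNA polymerase I (3.04), and Nop56 (2.80). In goblet cells 1 was higher (Tsr1, 3.15) and 6 lower, and in the upper villus 0 of 27 were higher and 23 lower (median -2.10). Of the 16 genes of growth control, which hold the members Rps6kb1 and Rps6kb2, 15 were tested between classes: 4 were higher and 1 lower in progenitors, where Myc, a driver of ribosome production, rose by 4.54 ± 0.34, 4 and 1 in goblet cells and 6 and 2 in T or NK cells. Along the villus 2 of 14 rose (Tsc1 and Rptor) and 2 fell (Larp1 by 0.66 and Akt1 by 1.18). Of all genes 26.9%, 19.8%, 38.9% and 24.9% were higher in these 4 comparisons, and 28.2%, 23.5%, 35% and 24.8% lower. The growth control counts, and the biogenesis counts in goblet cells, lay near or under these shares.

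The proteins of the mitochondrial ribosome are encoded by another gene family. Of 78, 16 were higher and 8 lower in progenitors (median 0.16), 0 and 75 in goblet cells (-1.55), 0 and 66 in T or NK cells (-1.21) and 0 and 77 in the upper villus (-1.85). Both progenitor counts lay under the shares of all genes, 26.9% higher and 28.2% lower. The lower counts elsewhere lay far above those shares, 23.5%, 35% and 24.8%. With total UMIs alone 8 mitochondrial ones were higher and 30 lower in T or NK cells, and of the cytosolic members 63 and 1. Whether the 2 families' changes differ was not tested.

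The 2 libraries differed not only in the amount of the family but in its make-up. As a log2 ratio of control 2 to control 1 of each gene's part in the members' sum, 77 of the 82 lay within 0.5, by the median over 6 classes. Rpl35 (chr2:39001580-39005624, minus strand) stood out at 1.57, between 1.44 and 1.67 in 6 of 6 classes, with 188 and 280 CPM in enterocytes and 796 and 1546 in progenitors. Rps29 (0.78), Rps28 (0.70) and Rpl38 (0.56) were higher in control 2 in every class as well. Rps27rt (chr9:114982366-114982739, minus strand) was lower in control 2, at -1.32, between -1.55 and -1.08 in the 5 classes with enough UMIs. Across the 82 genes Spearman's correlation with the length of the longest annotated transcript was -0.39, and Pearson's with its logarithm -0.22, as a description. The length of the transcripts expressed was not measured. The annotation lists 294 "-ps" copies of the family, Rps27rt is a near copy of Rps27, and no source used here says how reads matching several copies were counted. Levels of such genes are uncertain.

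**Figure D5:**
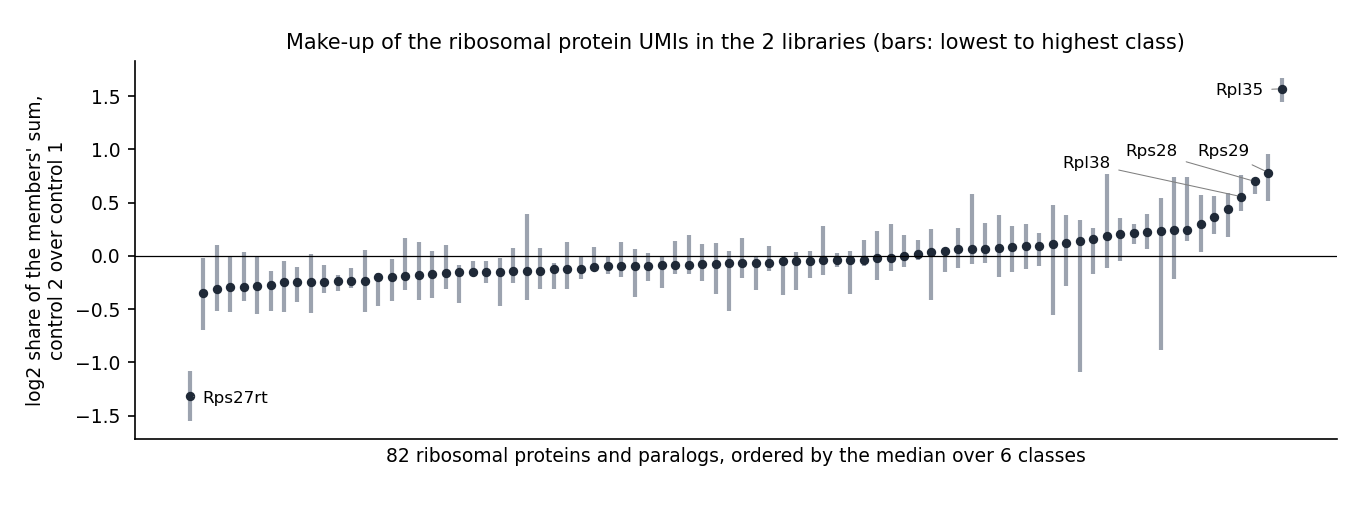
Log2 ratio, control 2 over control 1, of each member's part in the members' sum (points, median over 6 classes; bars, lowest to highest class), for the 82 members in order. Rpl35 lies at 1.57 and Rps27rt at -1.32, and 77 lie within 0.5 of 0.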

How the data were processed

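Deposited per the file headers and the submitters' processing notes are 10x 3′ count matrices of 2 control libraries: whole-number UMI counts per gene and barcode, not normalized. The notes name Cell Ranger 6.1 and 7.1.0 with GRCm38 and mm10, and the file header names 7.1.0; whether intronic reads were counted is not given in the sources used here. Cells with at least 500 genes and under 25% mitochondrial UMIs were kept, scored for doublets with scanpy 1.11.5 and clustered (2000 variable genes, 40 components, 15 neighbours, Leiden resolution 1.0, leidenalg 0.10.2) without the members, mitochondrial genes or comparison lists. The scoring rule that names clusters was set after the data were seen. UMIs were summed per library and class (the 6 named classes with 20 or more cells per library) or landmark zone and tested with edgeR 4.0.16 in R 4.3.3 (quasi-likelihood, TMM, filterByExpr, library term), with DESeq2 1.42.0 as an alternative. Marker and landmark genes got no result.

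Members, lists and the rule for named genes were chosen with earlier results of these data known. The rule names the stalk genes, the paralogs, the members that are no ribosomal proteins, the 5 highest and 5 lowest members of each contrast on either scale, the 5 most and 5 least abundant, and the 2 highest and 2 lowest called genes of each list. Some items that the rule names are not reported here. All members called relative to the family's own sum, and the outstanding genes of the library comparison, are named besides, chosen after their values were seen. Total UMIs per kept cell had medians of 3447 and 3009.5. On simulated data with 50 genes changed per fold size, the progenitor contrast recovered 2%, 46%, 96% and 100% of changes of 1.5, 2, 4 and 8 fold. It made 7 false calls, with 10975 genes tested in all. The villus contrast recovered 0%, 26%, 92% and 100%, with 1 false call and 9158 genes tested. All other genes were simulated without a difference. Errors from scaling between classes that differ in many genes, as here, were therefore not covered. The replicate numbers of the 2 libraries pair classes taken from the same suspension, so the library term is part of the design.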

Additional observations from a re-analysis of the deposited data

How the results depend on the processing

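Across the alternatives run, members were never called higher in goblet cells or in the upper villus. Higher members in progenitors numbered 79 (65 to 80) with 0 lower (1 for cells under 10% mitochondrial UMIs, without cells over 50000 UMIs, thinned to 1000 UMIs per cell, or at Leiden resolution 2.0), and lower members along the villus 82 (81 to 82). Lower members in goblet cells numbered 75 (9 to 80), with 33 in the fit without the replicate block and 9 with classes from each cell's own markers. The T or NK counts were the least stable. Against 28, higher members numbered 63 with total UMIs, 62 without mitochondrial genes in that total, 47 with DESeq2, 11 without a count filter, 6 without the replicate block, 12 under 10% mitochondrial UMIs, 13 without cells over 50000 UMIs, and 8 and 10 at Leiden resolutions 0.5 and 2.0. Against 2, lower members numbered 1 with total UMIs, with or without mitochondrial genes, without the replicate block and with own markers, 6 without a filter, 4 in a fit on the 2 classes alone, 8 under 10% mitochondrial UMIs, 7 thinned, and 5 at both other resolutions. Without the block, 65 members were called higher in progenitors and 81 lower along the villus. Over all alternatives the members' median log2 change ran from 1.15 to 2.06 in progenitors, -1.47 to -0.75 in goblet cells, 0.18 to 1.35 in T or NK cells and -4.38 to -2.58 along the villus. Leaving out a library gave medians of 1.29 to 1.60 in progenitors, -1.25 to -0.95 in goblet cells, 0.18 to 0.88 in T or NK cells and -3.56 to -3.45 along the villus.

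Relative to the members' sum, thinning gave 4 higher and 7 lower members in progenitors, 7 and 14 in T or NK cells and 2 lower in goblet cells, and the sum without the 10 most abundant members 0 lower in goblet cells. The sign turned for Rpl7a in T or NK cells with total UMIs (0.017), for Rps6ka5 there when thinned (0.19) and along the villus in cells under 2% mitochondrial UMIs (-0.24), and for Rps19bp1 relative to the sum along the villus when thinned (-0.39). Of 164 results on named members, 53 changed a call or direction under at least 1 alternative: of 1636 values, 71 lost and 51 gained a call. The mean share of the libraries moved in goblet cells from 2.67% to 4.07% with own markers, in T or NK cells from 14.7% to 11.8% as a mean over cells, 12.2% thinned, 16.1% with own markers and 17.03% without cells over 3% Malat1, and in myeloid cells from 17.1% to 19.2% with own markers. In zone 3 it moved from 5.05% to 1.91% in cells at 2% mitochondrial UMIs or more. In zone 4 it moved from 2.50% to 3.45% (under 10% mitochondrial UMIs), 3.54% (under 2%) and 1.07% (2% or more), and in zone 5 from 1.14% to 1.68% (mean over cells), 1.79% (under 10%) and 2.12% (under 2%). Zones under the 2% limits were cut anew within the kept cells, so these are not the same zones as over all cells. Zones under the 10% limit may differ too. The causes of these moves were not tested. At resolution 0.5 no progenitor class formed, so it gave no value. Thinning, the 2% and Malat1 limits and leaving out a progenitor cluster were chosen after seeing the data, thinning only for the shares.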

Other observations

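A cluster left unnamed, led by the stromal genes Cxcl14, Dcn and Sparc, had the highest share of ribosomal protein UMIs in control 2, at 36.0% (49 cells), and 26.3% in control 1 (55 cells), with a median mitochondrial share of 0.28% over its cells. Another unnamed cluster, led by the T cell genes Cd6, Cd5 and Themis, had 1.89% and 1.09% (73 and 140 cells), with 3.51% and 4.69% Malat1.

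Among enterocyte clusters the share ran from 10.98% and 10.04% in that led by Tstd1, Reg3a and Gstm3 (1143 and 332 cells) to 1.04% and 0.51% in that led by Clca4a, Ly6m and Ada (58 and 105 cells), whose mitochondrial shares were 14.1% and 14.8%. The cluster led by Reg1, Mgam and Slc2a2, with a median of 39255 UMIs per cell, had 8.18% and 4.54%.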
